A study of Mus musculus with 2 samples.

Results

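The constant regions of antibodies were described through 10 genes of the 19960 that the files list, in single cells of the mouse omentum. The genes were taken by symbol and not by any measured value. They are the heavy-chain genes *Ighm*, *Ighd*, *Ighg3*, *Ighg1*, *Ighg2b*, *Ighg2c* and *Igha* and the light-chain genes *Igkc*, *Iglc1* and *Iglc2*. The omentum, a fold of peritoneal fat with lymphoid clusters called milky spots, was taken 5 days after injection of diphtheria toxin (DT), and its cells were sequenced one by one in droplets. Both groups received DT. WT mice carried no toxin receptor, and *Postn*-DTR mice carried 1 *Postn* allele with the diphtheria toxin receptor inserted into its first coding exon, so that DT acts on cells that express *Postn*. Each group is 1 library from the pooled omenta of several mice, so no test between groups was possible, and every interval below covers counting error only.

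An antibody is built from paired heavy and light chains, each with a variable (V) part that binds antigen and a constant part. The heavy-chain constant gene sets the isotype, and a B cell starts with *Ighm* and *Ighd*, which give IgM and IgD from the same transcript. In class switching the DNA is cut and the same V segment is joined to a downstream gene (*Ighg3*, *Ighg1*, *Ighg2b*, *Ighg2c*, *Ighe* or *Igha*), and the DNA in between is lost. B1 B cells, which populate the peritoneal cavity and milky spots, are known as a source of natural IgM and IgA and of IgG3 against carbohydrates, and plasma cells are the secreting end stage of B cells.

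The 7 heavy-chain genes lie on the minus strand of chromosome 12 (GRCm38, GENCODE M21) in the order in which switching reaches them, from *Ighm* (chr12:113418558-113422730) and *Ighd* (chr12:113406604-113416324) through *Ighg3* (chr12:113356224-113361232), *Ighg1* (chr12:113325240-113330523), *Ighg2b* (chr12:113302965-113307933) and *Ighg2c* (chr12:113285325-113288932) to *Igha* (chr12:113254830-113260236). *Igkc*, the kappa gene, is on the plus strand of chromosome 6 (chr6:70726435-70726966). The lambda genes *Iglc1* (chr16:19061618-19062071) and *Iglc2* (chr16:19198396-19200351) are on the minus strand of chromosome 16. Because the isotype calls rest on telling the IgG genes apart, the first 120 bases of their first constant exon are shown, 5′ to 3′ on the transcript strand, with capitals at the 39 positions where the 4 genes are not all the same. They are from chr12:113330404-113330523, chr12:113307814-113307933, chr12:113288813-113288932 and chr12:113361113-113361232.
Ighg1: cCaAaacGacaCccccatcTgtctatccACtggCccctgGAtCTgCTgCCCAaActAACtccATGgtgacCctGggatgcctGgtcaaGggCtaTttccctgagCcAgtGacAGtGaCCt
Ighg2b: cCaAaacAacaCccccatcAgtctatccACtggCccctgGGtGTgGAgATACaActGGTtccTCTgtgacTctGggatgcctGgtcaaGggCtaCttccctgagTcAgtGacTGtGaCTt
Ighg2c: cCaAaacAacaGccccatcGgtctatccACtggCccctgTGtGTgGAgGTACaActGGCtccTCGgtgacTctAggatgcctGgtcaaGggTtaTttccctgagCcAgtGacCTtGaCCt
Ighg3: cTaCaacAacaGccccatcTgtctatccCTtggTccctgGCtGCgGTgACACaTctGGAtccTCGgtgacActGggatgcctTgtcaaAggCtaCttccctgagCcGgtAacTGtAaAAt

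Over the whole first exon *Ighg1* was 88.3% identical to *Ighg2b* and 88.0% to *Ighg2c*, whereas *Ighg3* was 78.4% to 79.0% identical to the other 3. *Iglc2* was 93.7% identical to *Iglc3*, a lambda gene outside the 10, and 63.1% to *Iglc1*. The first bases of the lambda exons are shown in the same way, with capitals where the 3 genes are not all the same (chr16:19061953-19062071, chr16:19198734-19198853 and chr16:19065563-19065681).
Iglc1: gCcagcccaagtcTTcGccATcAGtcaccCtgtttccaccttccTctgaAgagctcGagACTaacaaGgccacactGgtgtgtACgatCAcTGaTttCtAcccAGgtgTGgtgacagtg
Iglc2: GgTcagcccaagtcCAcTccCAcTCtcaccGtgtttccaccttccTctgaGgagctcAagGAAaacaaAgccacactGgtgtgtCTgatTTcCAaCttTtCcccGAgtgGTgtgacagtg
Iglc3: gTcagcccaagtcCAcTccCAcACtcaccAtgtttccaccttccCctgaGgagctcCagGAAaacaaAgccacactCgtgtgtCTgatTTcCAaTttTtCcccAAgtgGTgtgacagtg

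No stretch of 90 bases in the first exon of any of the 10 genes was found in the transcripts of another constant region gene. This bears only on tags near the 5′ end of the constant region. The last exons, where tags of a 3′ kit would lie, were not compared. Reads shorter than this, or reads with errors, could still be shared between the IgG genes or between *Iglc2* and *Iglc3*, and the read length is not given in the sources used here. The sequences are those of the C57BL/6J reference in GENCODE, whose symbol *Ighg2c* stands for the IgG2a-like gene of this strain.

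The filters left 8654 WT and 5727 *Postn*-DTR cells with nearly equal totals of 80152141 and 81010731 UMIs (unique molecular identifiers, 1 per captured transcript). Classes came from clusters made without any immunoglobulin gene, named "X-like" from marker genes. Plasma-like cells numbered 554 in WT and 2085 in *Postn*-DTR, B1-like cells 976 and 455, B2-like cells 1612 and 468, T-like cells 3149 and 506, and neutrophil-like cells 240 and 744. In plasma-like cells 57.4% (WT) and 53.4% (*Postn*-DTR) of the UMIs of the median cell came from immunoglobulin genes, so that these genes share a fixed total with each other and with all other genes. Among these classes, different clusters held most of the cells in the 2 libraries for neutrophil-like cells, with 75.4% of the WT cells in cluster 13 and 64.0% of the *Postn*-DTR cells in cluster 8. Cluster 2 held the most plasma-like cells in both (393 cells or 70.9%, and 961 cells or 46.1%). Cluster 3 held 114 in WT but 904 in *Postn*-DTR, so the mix of plasma-like clusters differed between the libraries. Doublet calls fell on 0 WT and 48 *Postn*-DTR plasma-like cells, which were kept. In 65 cases the same cell barcode occurred in both libraries, and 8 of these cells in WT and 22 in *Postn*-DTR were plasma-like.

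Plasma-like cells held the highest level of 8 of the 10 genes in both libraries, over 11 classes with at least 50 cells in each library. A level is the mean over cells of the UMIs of a gene per 10000 UMIs of the cell, and as counts of tagged ends these levels were not divided by transcript length. *Ighm* was the most abundant of the 10 at 455 (WT) and 428 (*Postn*-DTR), followed by *Igkc* at 395 and 375. *Ighg3* came next with 76.1 and 61.1. The 2 libraries shared this order of the first 3 genes, and the levels differed between them by at most 1.24-fold, for *Ighg3*. *Iglc2* (24.2 and 14.8), *Iglc1* (14.3 and 13.1) and *Igha* (15.0 and 2.17) formed a middle group in WT, and *Ighg1* (0.563 and 10.6), *Ighg2b* (2.45 and 3.0) and *Ighg2c* (3.48 and 1.21) stayed lower except for *Ighg1* in *Postn*-DTR. *Ighd* was lowest at 0.0616 and 0.0158.

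**Figure D1:**
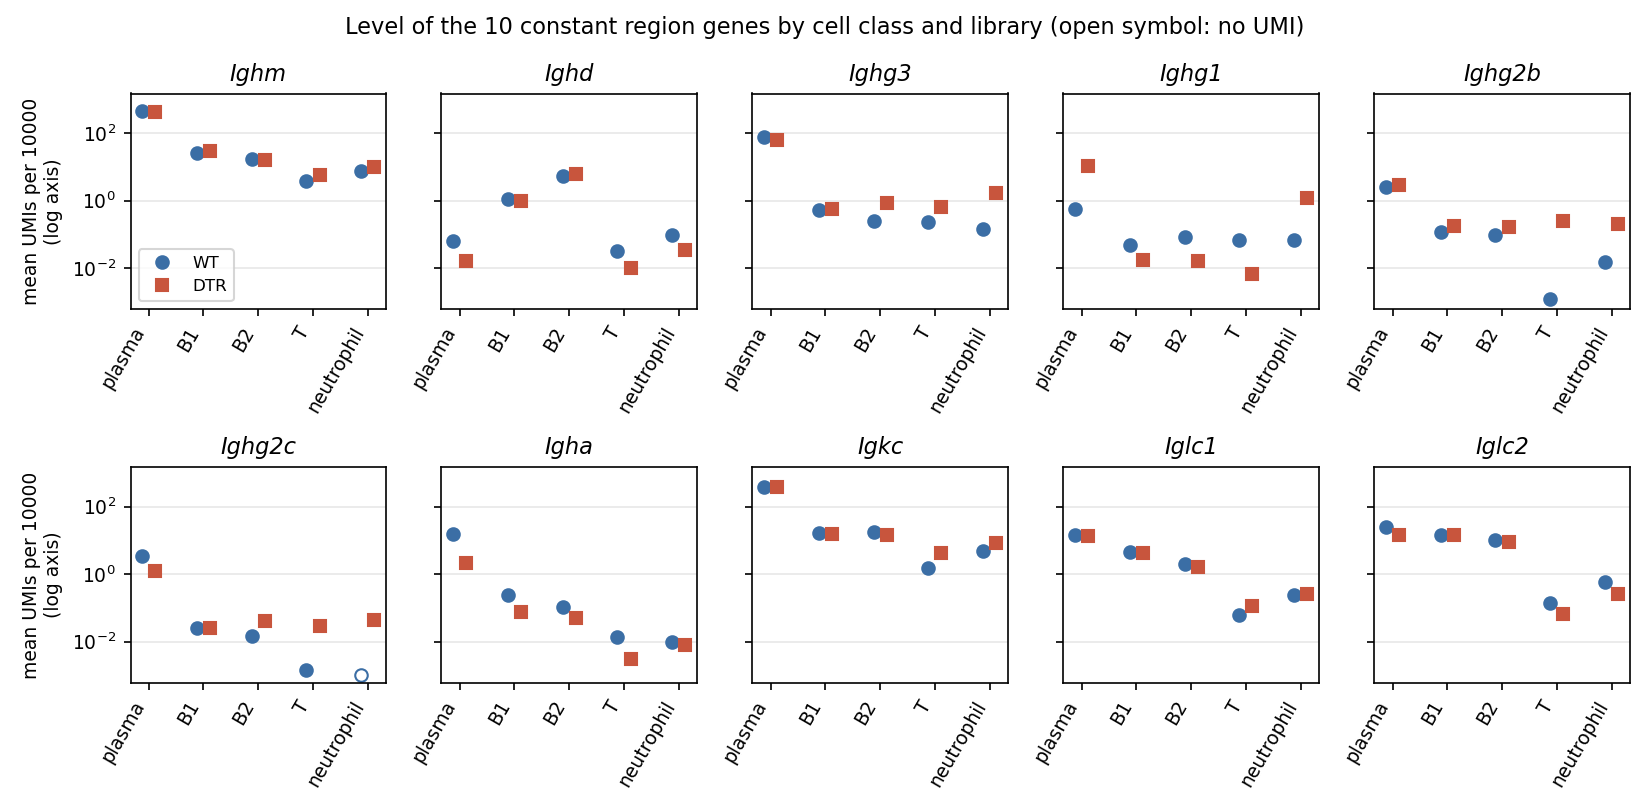
Mean level (UMIs per 10000, log axis) of each of the 10 genes in 5 cell classes, for the WT library (circles) and the *Postn*-DTR library (squares), with 1 value per library and no error bar. All genes but *Ighd* are highest in plasma-like cells among these 5 classes, *Ighd* peaks in B2-like cells at 5.47 and 6.19, and *Ighg1* in plasma-like cells stands apart between libraries at 0.563 and 10.6.

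The exceptions to the plasma-like maximum were *Ighd*, which was highest in B2-like cells, and *Igha* in *Postn*-DTR, where macrophage-like cells stood at 2.20 beside 2.17 in plasma-like cells. A single macrophage-like cell held 99.7% of those *Igha* UMIs. In the WT library, too, 1 macrophage-like cell held 99.8% of the class's *Igha* UMIs. For *Iglc2* the distance from plasma-like to B1-like cells was small, 24.2 against 14.9 in WT and 14.8 against 14.2 in *Postn*-DTR. *Ighg3* in WT was 146-fold higher in plasma-like cells than in B1-like cells, the next class. In *Postn*-DTR it was 7.64-fold higher than in macrophage-like cells, the next class there. However, 3 macrophage-like cells held 96.7% of that class's *Ighg3* UMIs, and its median level was 0. B1-like cells of *Postn*-DTR had *Ighg3* at 0.581, beside 61.1 in plasma-like cells.

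The switched genes were carried by few cells, whereas *Ighm*, *Igkc* and the lambda genes were in nearly every plasma-like cell. At least 1 *Ighm* UMI was found in 97.3% (WT) and 98.5% (*Postn*-DTR) of plasma-like cells, and at least 1 of *Igkc* in 99.6% and 99.9%. Cells with 100 or more *Ighg3* UMIs made up 13.2% and 10.9% of the class and held 99.8% and 99.6% of its *Ighg3* UMIs. For *Ighg1* in WT a single cell held 98.5% of the 1035 UMIs, whereas in *Postn*-DTR 67 cells held 99.9% of 60969. *Igha* UMIs were held to 99.3% by 20 WT cells and to 84.8% by 10 *Postn*-DTR cells. *Ighd* had no cell with 100 UMIs in either library.

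Each plasma-like cell was given the isotype of its highest heavy-chain constant gene. Most were IgM, with 462 of 554 cells in WT (83.4%, exact 95% interval 80.0 to 86.4) and 1783 of 2085 in *Postn*-DTR (85.5%, 83.9 to 87.0). IgG3 followed with 69 cells (12.5%, 9.82 to 15.5) and 216 cells (10.4%, 9.08 to 11.7). The intervals of the 2 libraries overlapped for both. All switched isotypes together made up 16.6% and 14.5%.

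The 2 libraries parted in the rarer isotypes. IgA was called in 16 WT cells (2.89%, 1.66 to 4.65) and 8 *Postn*-DTR cells (0.384%, 0.166 to 0.755). IgG1 went the other way, with 1 WT cell (0.181%, 0.00457 to 1.0) and 61 *Postn*-DTR cells (2.93%, 2.25 to 3.74). Neither pair of intervals overlapped, and with 1 library of pooled mice on each side a difference between genotypes and a difference between mice cannot be told apart. IgG2b (3 and 10 cells) and IgG2c (3 and 7 cells) stayed under 1% in both libraries. No cell was called IgD, which at these cell numbers allows shares of up to 0.542% and 0.144%, and no cell was tied or without a heavy-chain UMI.

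**Figure D2:**
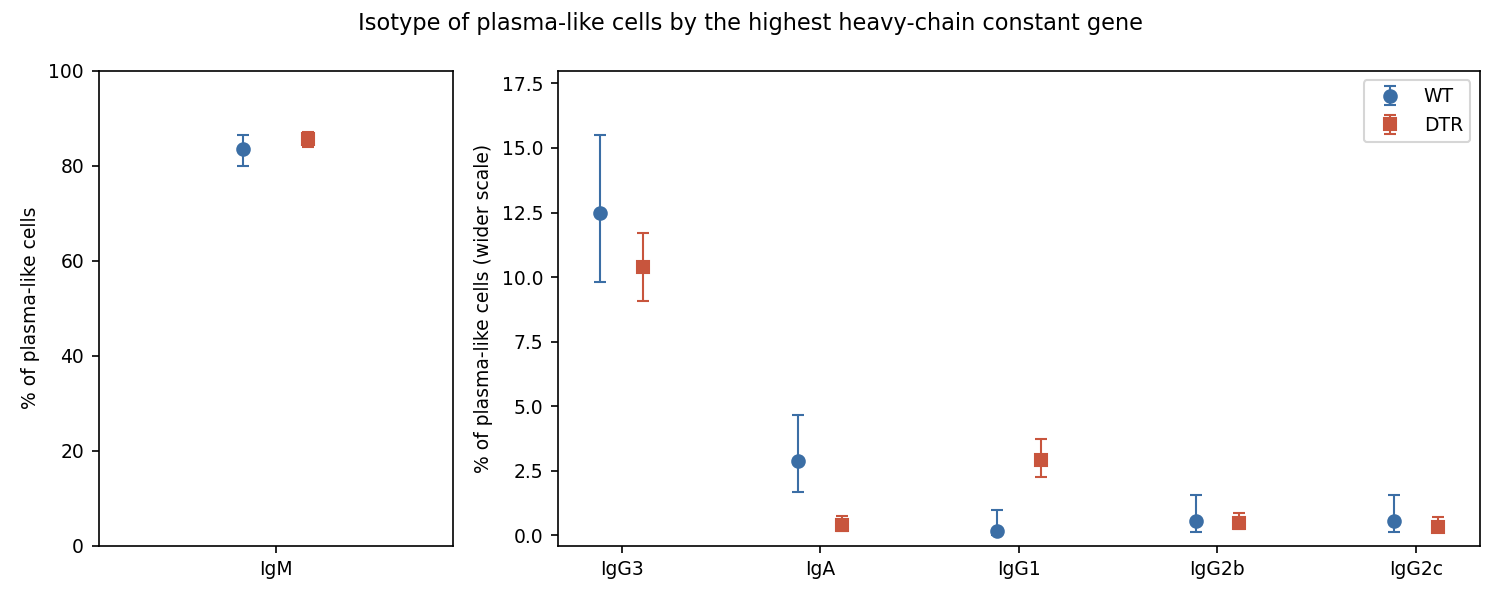
Share of plasma-like cells of each isotype (percent of 554 WT cells, circles, and 2085 *Postn*-DTR cells, squares), with exact Clopper-Pearson 95% intervals for counting error only and a separate axis for IgM. IgM and IgG3 overlap between the libraries, IgA is 2.89% in WT and 0.384% in *Postn*-DTR, and IgG1 is 0.181% and 2.93%.

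Most calls were clear-cut. The median IgM cell had 100% of its heavy-chain UMIs in *Ighm* (1447 UMIs in WT and 1106 in *Postn*-DTR). IgG1 cells in *Postn*-DTR had a median of 945 *Ighg1* UMIs beside 1 of *Ighm*. IgA cells in WT had a median of 1892 *Igha* UMIs beside 12 of *Ighm*. Of the 10 IgG2b cells in *Postn*-DTR, 8 had *Ighg2c* as their second gene, and the median cell had 98.3% of its heavy-chain UMIs in *Ighg2b*. Of the IgG3 cells, 73.9% in WT and 89.8% in *Postn*-DTR had 90% or more of their heavy-chain UMIs in their own gene. *Ighm* was the second gene in 56 of 69 and 172 of 216 IgG3 cells. The mixed cells, 18 in WT and 22 in *Postn*-DTR, had medians of 2196 and 1556 *Ighg3* UMIs beside 1100 and 1043 of *Ighm*. None of them was called a doublet, but neither was any of the 554 WT plasma-like cells. In 8 and 11 of them, 90% or more of the heavy V UMIs were in 1 segment. The leading V segments were *Ighv1-11* with *Igkv8-16* in 12 and 13 of them, as in 83 WT and 738 *Postn*-DTR IgM cells. A droplet with 2 cells of this pair would also show 1 heavy V segment. Whether the mixed cells are 2 cells in 1 droplet was not tested.

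The IgG3 share depended on the cluster. In cluster 3, led by the folding genes *Fkbp11*, *Creld2* and *Derl3*, 44 WT cells (38.6% of the cluster, 29.6 to 48.2) and 172 *Postn*-DTR cells (19.0%, 16.5 to 21.7) were IgG3. In cluster 2, led by *Prg2* and *Jchain*, the shares were 4.58% (2.74 to 7.14) and 2.29% (1.44 to 3.45). The intervals of the libraries were apart in cluster 3 and overlapped in cluster 2. Cluster 3 held 114 WT and 904 *Postn*-DTR cells, and cluster 2 held 393 and 961. Shares and ratios over all plasma-like cells were not adjusted for this mix. The cycling plasma-like cluster had 7 of 47 (14.9%) and 17 of 180 (9.44%) IgG3 cells. IgG1 in *Postn*-DTR was found mainly in cluster 3, with 47 of its 61 cells.

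The isotypes were carried by few V segment pairs, taking in each cell the heavy and the light V segment with the most UMIs. This breakdown was added after the isotype values were seen. Of the 61 IgG1 cells in *Postn*-DTR, 58 had *Ighv1-26* with *Igkv9-120*, a pair found in 59 *Postn*-DTR cells and in 0 of the 554 WT cells. Without the cells of this pair IgG1 was 0.148% in *Postn*-DTR beside 0.181% in WT. Cells that share V segments can descend from 1 B cell, so they are not independent.

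IgG3 was likewise concentrated, but in a pair present in both libraries. *Ighv1-11* with *Igkv8-16* was the pair of 62 of 69 IgG3 cells in WT (89.9%) and 197 of 216 in *Postn*-DTR (91.2%). It was also common among IgM cells, with 83 of 462 and 738 of 1783. Within the pair 42.8% of 145 WT cells (34.6 to 51.2) and 20.9% of 943 *Postn*-DTR cells (18.3 to 23.6) were IgG3. The 8 cells that were IgG2b among the 10 of *Postn*-DTR had this pair too, and none of the 145 WT cells with it were IgG2b, which allows a share of up to 2.07%. Whether each pair stands for 1 clone or for several was not tested, since junction sequences are not part of the values.

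Other frequent pairs were almost purely IgM. *Ighv11-2* with *Igkv14-126*, a pair known from B1 cells that bind phosphatidylcholine, was IgM in 186 of 186 WT cells and 664 of 665 *Postn*-DTR cells. *Ighv12-3* with *Igkv4-91*, the other pair known for that specificity, was IgM in 21 of 21 and 57 of 57. IgA was the most diverse of the switched isotypes, with 15 pairs among 16 WT cells and 6 among 8 *Postn*-DTR cells. IgG2c in *Postn*-DTR had 2 pairs in 7 cells, led by *Ighv5-17* with *Igkv14-111* in 5. Over all isotypes, 78 pairs were seen in WT and 149 in *Postn*-DTR.

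**Figure D3:**
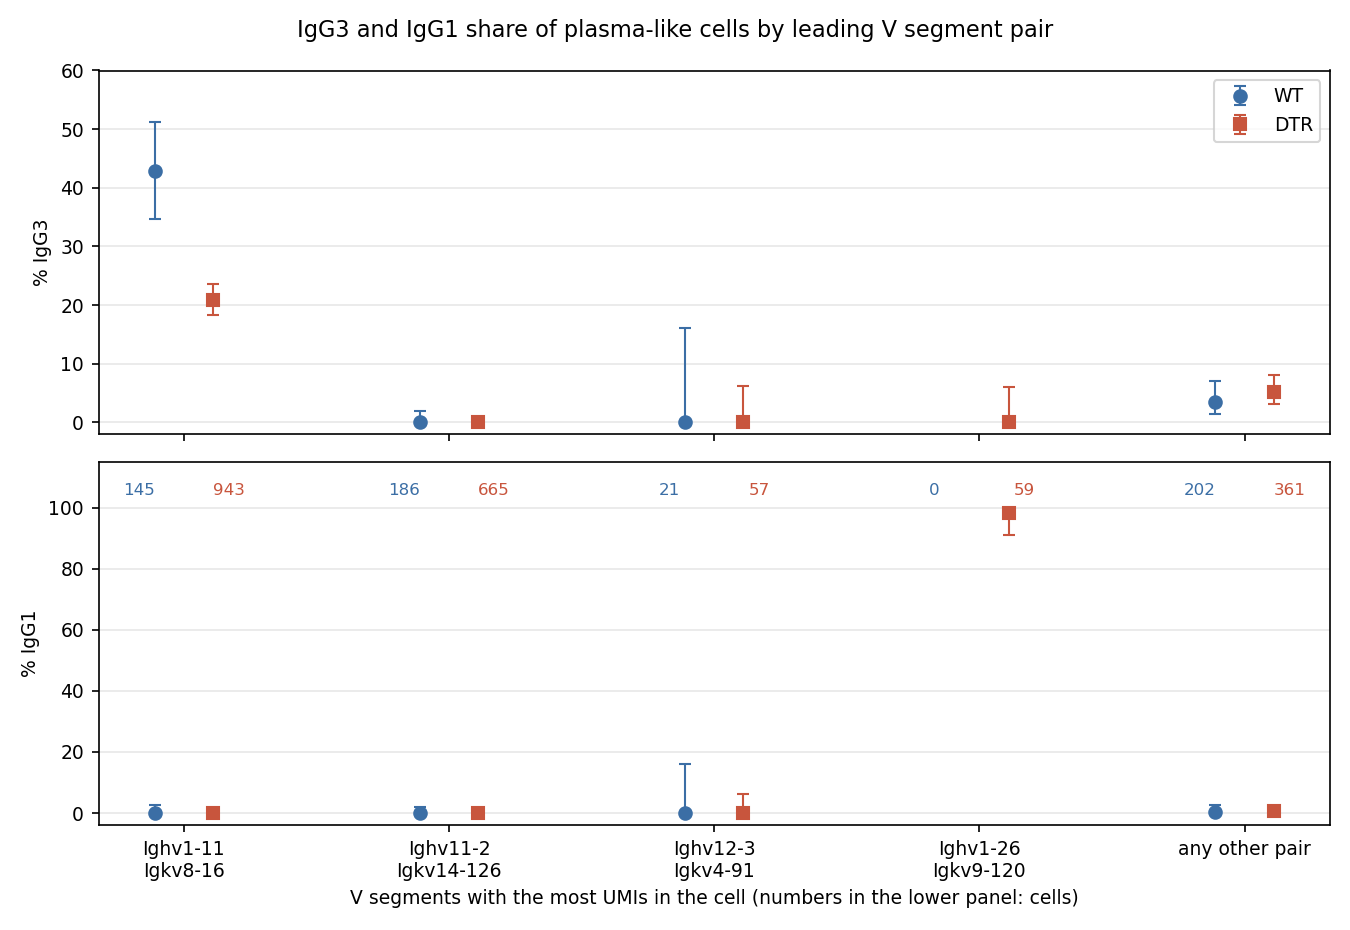
Percent of plasma-like cells called IgG3 (upper panel) and IgG1 (lower panel) among cells with the same leading heavy and light V segment, WT (circles) and *Postn*-DTR (squares), with exact 95% intervals and cell numbers in the lower panel. IgG3 sits at 42.8% and 20.9% in the *Ighv1-11* *Igkv8-16* pair and at 0% in the *Ighv11-2* *Igkv14-126* pair, and IgG1 sits at 98.3% of the 59 *Postn*-DTR cells of the *Ighv1-26* *Igkv9-120* pair, which no WT cell had.

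Between the libraries, 1 of the 10 genes was higher in *Postn*-DTR past 2-fold in plasma-like cells and 3 were lower. Among the 9811 genes with at least 100 UMIs in these cells, 3.69% were higher and 4.89% lower past 2-fold. *Ighg1* was 18.8-fold higher, a log2 ratio of 4.23 for the means and 4.28 for the summed UMIs (4.19 to 4.37). Without the *Ighv1-26* *Igkv9-120* cells the log2 ratio of means was 0.62. *Igha* was 6.92-fold lower, from 15.0 to 2.17 UMIs per 10000 (log2 ratio -2.79, and -2.97 for the sums). *Ighd* was 3.89-fold lower, on 108 and 92 UMIs in all. By summed UMIs per 10000 it was at 0.0597 and 0.0168, beside 0.0601 and 0.00741 in T-like cells, which should lack it. By the mean over cells it was at 0.0616 and 0.0158 in plasma-like cells, beside 0.0312 and 0.00972 in all T-like cells. Without T-like cells that had 3 or more UMIs of *Jchain*, *Mzb1*, *Cd79a* and *Ms4a1* together, these T-like means were 0.0117 and 0.0106. Whether the *Ighd* UMIs of plasma-like cells are free RNA was not tested. *Ighg2c* was 2.87-fold lower by means (log2 ratio -1.52), but by summed UMIs the log2 ratio was -0.85 and not past 2-fold. The other 6 ran from -0.70 (*Iglc2*) to 0.29 (*Ighg2b*), with -0.09 for *Ighm*, -0.07 for *Igkc*, -0.13 for *Iglc1* and -0.32 for *Ighg3*.

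In B cells the genes that stood out were *Ighm* and *Ighd*. B1-like cells had *Ighm* at 25.6 in WT and 28.9 in *Postn*-DTR and *Ighd* at 1.1 and 0.977. B2-like cells had less *Ighm* (17.5 and 16.2) and more *Ighd* (5.47 and 6.19). Summed over cells, B1-like cells had 24.3 and 32.5 *Ighm* UMIs for each *Ighd* UMI, and B2-like cells 3.24 and 2.68. The high ratio of IgM to IgD is the known mark of B1 cells, and it was seen here in clusters named without immunoglobulin genes. *Ighd* exceeded *Ighm* in 123 of 1612 WT (7.63%) and 56 of 468 *Postn*-DTR (12.0%) B2-like cells, and in 1 B1-like cell of each library.

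The share of cells with an *Ighd* UMI, after thinning each cell to 1000 UMIs, was 39.7% and 40.3% in B2-like cells and 8.81% and 9.23% in B1-like cells. Unthinned it was 82.6% and 80.6% in B2-like cells (median depth 4475 and 3357 UMIs) and 44.3% and 36.0% in B1-like cells (8950 and 6631). T-like cells, which should lack the gene, had 0.287% and 0.199% when thinned (1.52% and 0.395% unthinned, median depth 4654 and 4293), so the shares in B cells were above this background in both libraries. Thinning left out 11 WT and 4 *Postn*-DTR B2-like cells, 12 and 3 T-like cells and no B1-like cell.

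Of the switched genes, *Ighg3* was, after thinning, found in a share of B-like cells like that of cells that should lack it. Thinned to 1000 UMIs, *Ighg3* was found in 2.87% and 5.05% of B1-like and 2.25% and 7.76% of B2-like cells, beside 2.07% and 5.96% of T-like and 2.10% and 7.88% of neutrophil-like cells. The shares in B cells and in cells that should lack the gene overlapped within each library. Thinned to 1000 UMIs, the share of cells with *Igha* in WT was above that of T-like cells. It was 1.43% of B1-like cells (0.786 to 2.40) and 1.06% of B2-like cells (0.620 to 1.69). T-like cells had 0.159% (0.0518 to 0.372). In *Postn*-DTR *Igha* was found in 1.98% of B1-like cells (0.908 to 3.72) and in 0 of 503 T-like cells (interval up to 0.731). B2-like cells of *Postn*-DTR had 0.431% (0.0522 to 1.55), which overlapped with T-like cells. Thinned to 2000 UMIs, *Postn*-DTR B1-like cells had 1.32% (0.487 to 2.85) and T-like cells 0.218% (0.00552 to 1.21), and these intervals overlapped. *Ighg2b* in WT, again at 1000 UMIs, was found in 0.512% of B1-like (0.167 to 1.19) and 0.687% of B2-like cells (0.343 to 1.23). It was found in 0 of 3137 T-like cells of WT (up to 0.118). In *Postn*-DTR the *Ighg2b* intervals of B cells overlapped with that of T-like cells. B cells with a switched gene on top at 5 or more UMIs numbered 18 and 5 in the B1-like class (1.84% and 1.1%) and 13 and 0 in the B2-like class.

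The libraries were then compared within the B-like classes. In B1-like cells 8 of the 10 passed the minimum of 100 UMIs, 0 were higher and 1 was lower past 2-fold, against 1.84% and 1.70% of 7897 genes. The lower gene was *Igha* at 0.234 and 0.0756 UMIs per 10000 (184 and 22 UMIs). In B2-like cells 7 passed the minimum, 1 was higher and 0 were lower, against 1.19% and 1.79% of 7382 genes. That gene was *Ighg3* at 0.257 and 0.844, whose level was also higher in *Postn*-DTR in T-like cells (0.238 and 0.644).

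Light chains were almost always kappa in plasma-like cells. *Igkc* was the highest light-chain gene in 548 of 554 WT and 2063 of 2085 *Postn*-DTR cells, 98.9% in each (97.7 to 99.6 and 98.4 to 99.3). *Iglc1* was highest in 6 and 7 cells and *Iglc2* in 0 and 15. All IgG cells of both libraries were kappa. In B cells lambda genes, *Iglc3* included, were on top far more often, in 43.4% and 48.4% of B1-like and 32.0% and 29.1% of B2-like cells. With *Iglc3* included, *Igkc* was highest in 548 WT and 2061 *Postn*-DTR plasma-like cells. Most B-like cells had UMIs of both kinds. In B1-like cells of WT *Igkc* was found in 94.8% (mean 15.7 UMIs) and *Iglc2* in 99.2% (mean 14.0 UMIs). In those of *Postn*-DTR it was 97.6% (12.6) and 96.0% (10.4). A lambda gene on top therefore does not by itself mark a lambda cell. UMIs of different light-chain genes were not corrected for how well each gene is captured.

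Kappa plasma-like cells nonetheless carried lambda UMIs in nearly every cell. The median kappa cell of WT had 1114 *Igkc*, 32 *Iglc1*, 63 *Iglc2* and 20 *Iglc3* UMIs, and that of *Postn*-DTR 871, 23, 24 and 12. The level in the T-like cells of the same library would give 0.282 and 0.253 *Iglc1* UMIs and 0.714 and 0.199 *Iglc2* UMIs in a plasma-like cell of median depth. The lambda UMIs of kappa cells were thus above that level. Cells with 100 or more *Iglc2* UMIs made up 24.9% of WT and 7.91% of *Postn*-DTR plasma-like cells.

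IgG plasma-like cells were compared with IgM cells within each library, over genes other than immunoglobulin genes (76 against 462 cells in WT and 294 against 1783 in *Postn*-DTR). IgA was not compared, since both libraries had fewer than 50 IgA cells. Of 6696 genes with enough UMIs, 14 (0.209%) were past 2-fold higher in IgG cells in both libraries and 102 (1.52%) past 2-fold lower. The cells of a library are not replicates and share V pairs, so these are descriptions of the 2 libraries.

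Of the genes higher in IgG cells, *Fgl2*, which encodes a fibrinogen-like protein, had the widest ratio at 9.10-fold in WT and 3.91-fold in *Postn*-DTR. *Pgam2*, a glycolytic enzyme, was 2.42-fold and 4.04-fold higher, *Pik3r5*, a regulatory subunit of PI3 kinase, 3.91-fold and 2.53-fold, and *Atp2a3*, a calcium pump of the endoplasmic reticulum, 2.37-fold and 2.53-fold. *Sfn*, *Pld4*, *B930036N10Rik* and *a*, the nonagouti gene, were 2.26-fold to 4.16-fold higher. Of the genes lower in IgG cells, *Timp2*, an inhibitor of metalloproteinases, was 16.5-fold and 8.70-fold lower, *Vav3*, a guanine exchange factor, 8.50-fold and 9.83-fold, and *Kit*, a receptor tyrosine kinase, 6.45-fold and 7.96-fold. *Pls1*, *Cox6a2*, *Agpat2*, *Gm19585* and *Cd200* were also among the 8 lowest, at 5.19-fold or more in both libraries.

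The antibody folding and assembly list leaned towards IgG cells. All 16 of its genes were tested, 14 were higher and 2 lower in both libraries, and the median log2 ratio was 0.61 in WT and 0.47 in *Postn*-DTR, beside 0.06 and 0.03 over all genes tested. The chaperone *Hsp90b1* had a level of 61.3 in IgG against 30.3 in IgM cells of WT and of 61.2 against 29.0 in *Postn*-DTR. *Jchain*, which joins IgM and IgA into polymers, went the other way, at 478 in IgM and 179 in IgG cells of WT and at 276 and 95.6 in *Postn*-DTR. *Txndc5*, a disulfide isomerase, was the other lower gene (log2 ratios -0.83 and -1.67). *Tnfrsf17*, the receptor BCMA, was 3.75-fold and 5.46-fold lower in IgG cells.

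The medians of the other lists were -0.32 and -0.07 for the 12 tested genes of the class switch machinery, -0.12 and -0.30 for 12 genes of signals that steer switching, 0.46 and 0.05 for 8 of immunoglobulin transcription and processing, 0.30 and -0.09 for 8 of homing and adhesion, -0.05 and -0.14 for 16 of plasma cell maturation and 0.64 and 0.18 for 10 cycling genes. Within the single pair *Ighv1-11* *Igkv8-16* *Jchain* was still 3.06-fold and 3.61-fold lower and *Tnfrsf17* 4.27-fold and 7.80-fold lower in IgG than in IgM cells. *Hsp90b1* then stood at 59.7 in both IgG and IgM cells of WT, and *Vav3* turned to higher in IgG cells, on 4 IgG and 6 IgM UMIs in WT and 2 and 5 in *Postn*-DTR. Within this pair 3114 genes could be tested, and 1 was past 2-fold higher (*Fgl2*) and 19 lower in both libraries.

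**Figure D4:**
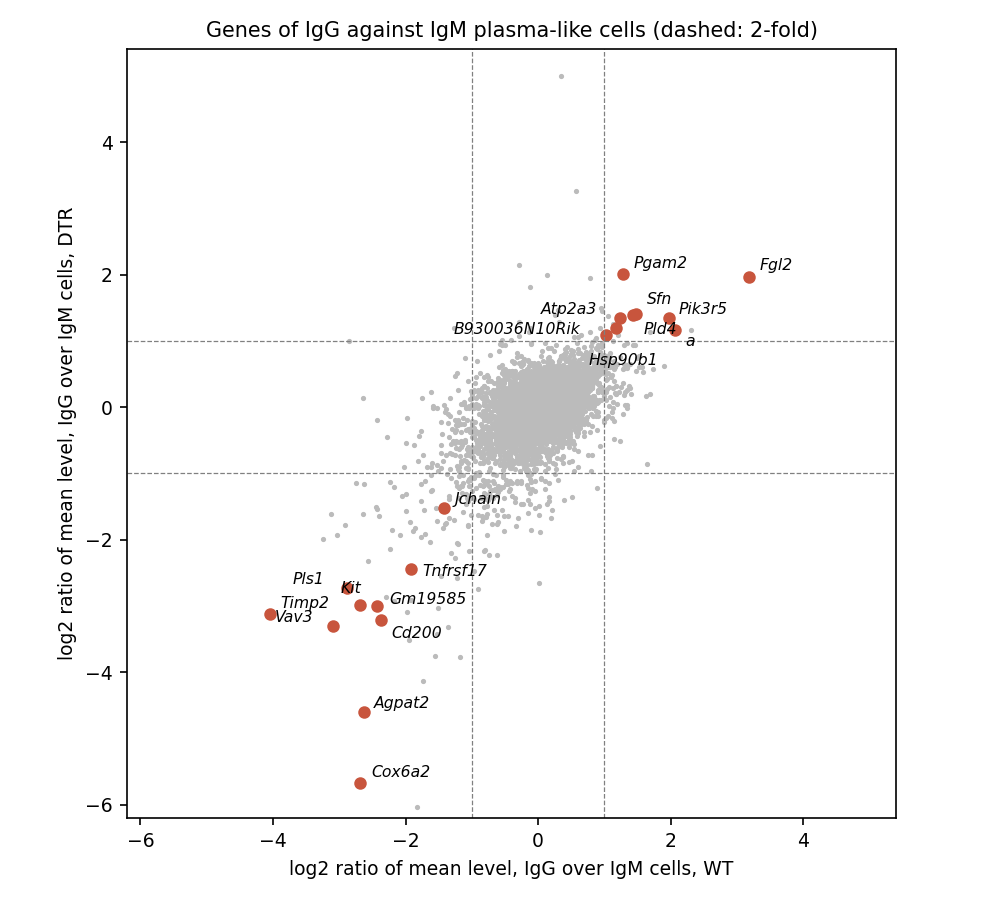
Log2 ratio of the mean level in IgG over IgM plasma-like cells for 6696 genes (grey), in WT (horizontal) and *Postn*-DTR (vertical), with the named genes in red and dashed lines at 2-fold. *Fgl2* stands at the upper right (9.10-fold and 3.91-fold), *Timp2*, *Vav3*, *Agpat2* and *Cox6a2* at the lower left, and *Jchain* and *Tnfrsf17* below 2-fold in both. *Cxcr3* is the lone point at the top.

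*Cxcr3*, a chemokine receptor, was singled out after its values were seen. Its log2 ratio of IgG to IgM cells was 0.35 in WT and 5.00 in *Postn*-DTR. In *Postn*-DTR it had a UMI in 55 of 61 IgG1 cells (90.2%, 79.8 to 96.3) but in 4 of 216 IgG3 cells (1.85%) and 18 of 1783 IgM cells (1.0%). IgG2c cells also had it, in 5 of 7 cells in *Postn*-DTR and 2 of 3 in WT, as did IgA cells (3 of 8 and 2 of 16) and IgG2b cells (2 of 10 and 1 of 3). In WT 10.1% of IgG3 and 5.19% of IgM cells had a *Cxcr3* UMI. Since 58 of the 61 IgG1 cells have 1 V pair, isotype and V pair cannot be told apart here.

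In plasma-like cells 24 of the 26 genes of the switch machinery passed the minimum of UMIs and none differed past 2-fold between libraries (median log2 ratio 0.01, beside 0.03 over all genes). Of the signals that steer switching, 17 of 18 passed it, with 0 higher, 1 lower and a median of -0.37.

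The remaining lists in plasma-like cells had medians of 0.30 (antibody folding and assembly, 16 tested, 0 past 2-fold), 0.19 (immunoglobulin transcription and processing, 11 tested, 2 lower), -0.28 (homing and adhesion, 11 tested, 3 lower), -0.61 (plasma cell maturation, 16 tested, 4 lower) and 0.30 (cycling, 10 tested, 0 past 2-fold) for the log2 ratio of *Postn*-DTR to WT, where 3.69% of all genes were past 2-fold higher and 4.89% lower. Over class by library means, 22 values from 11 classes that share the 2 libraries, the genes most like *Ighm* were *Mzb1*, *Ly6k* and *Tram2* (Pearson r 0.92, 0.92 and 0.91 on log2 levels). *Igkc* was most like *Mzb1*, *Eaf2* and *Ly6k* (0.93, 0.89 and 0.89), *Ighd* like *Fcrl1*, *Gm50386* and *Ffar1* (0.97 each), and *Igha* like *Copz2*, *Clec2g* and *Evc2* (0.94, 0.93 and 0.91).

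Immunoglobulin UMIs were also counted in T-like and neutrophil-like cells, which do not make antibody. Free RNA in the droplet is a known source of such UMIs, but their source was not tested. The summed level of the 10 genes in T-like cells was 5.76 (WT) and 11.2 (*Postn*-DTR) UMIs per 10000, which is 0.585% and 1.23% of that in plasma-like cells of the same library. In neutrophil-like cells it was 13.7 and 21.9, but the top 1% of cells held 79.7% and 73.3% of those UMIs. Without cells that had 3 or more UMIs of *Jchain*, *Mzb1*, *Cd79a* and *Ms4a1* together, the levels were 4.56 (WT) and 10.5 (*Postn*-DTR) in T-like and 1.76 and 12.4 in neutrophil-like cells. Both classes were higher in the *Postn*-DTR library, which held 36.4% plasma-like cells against 6.40% in WT. A link between the 2 was not tested. Median depth was 8799 (WT) and 3292 (*Postn*-DTR) UMIs in neutrophil-like cells, and 4654 and 4293 in T-like cells. Neutrophil-like cells without marker-bearing cells had 273 UMIs of the 10 genes in 221 WT cells and 2323 in 662 *Postn*-DTR cells. How much of the difference per 10000 UMIs comes from depth was not tested.

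Of the 10 genes, 6 could be compared between libraries in T-like cells, with 2 higher in *Postn*-DTR (against 1.89% of 9385 genes) and 2 lower (against 1.85%). The higher ones were *Ighg3* (0.238 and 0.644) and *Igkc* (1.52 and 4.26, or a log2 ratio of 1.49, which was 0.61 by summed UMIs). The lower ones were *Ighd* (103 and 2 UMIs) and *Iglc2* (408 and 22 UMIs). Without the marker-bearing cells neither was past 2-fold, with log2 ratios of -0.13 (*Ighd*, 20 and 2 UMIs) and -0.49 (*Iglc2*, 85 and 11 UMIs). In neutrophil-like cells 6 could be compared, with 2 higher (against 6.21% of 4335 genes) and 1 lower (against 2.81%). They were *Ighg3* (27 and 1304 UMIs), *Ighg1* (7 and 536) and *Iglc2* (427 and 158). In *Postn*-DTR a single cell held 87.0% of the *Ighg3* and 98.7% of the *Ighg1* UMIs of the class. Without the marker-bearing cells *Ighg1* had 7 and 6 UMIs in neutrophil-like cells, and its higher value in *Postn*-DTR was gone. *Iglc2* then turned to higher in *Postn*-DTR, with 3 and 23 UMIs and a log2 ratio of 2.59.

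The make-up of these UMIs was set beside that of plasma-like cells, since a single source of free RNA would keep the genes in 1 ratio in every class. In T-like cells without marker-bearing cells *Igkc* made up 89.5% (87.7 to 91.1) and 96.0% (94.3 to 97.4) of light-chain UMIs. Its plasma-like shares, 91.2% and 93.2%, were near these intervals but outside them. *Ighm* took 92.0% and 86.3% of heavy-chain UMIs beside 79.0% and 84.2%. *Ighg3* was close to its plasma-like share in *Postn*-DTR (9.71%, 8.04 to 11.6, beside 12.1%) but below it in WT (5.25%, 4.64 to 5.92, beside 16.3%). Between the chains, these T-like cells had 4470 *Ighm* and 1198 *Igkc* UMIs in WT, and 968 and 679 in *Postn*-DTR. Plasma-like cells had 747209 and 695630 in WT, and 2229244 and 2016121 in *Postn*-DTR.

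Other genes were off their plasma-like share, in a direction that differed between libraries. In WT *Ighg1* made up 1.83% (1.47 to 2.25) of the heavy-chain UMIs of T-like cells and 3.40% (1.38 to 6.88) of those of neutrophil-like cells, beside 0.109% in plasma-like cells. In *Postn*-DTR *Ighg1* was at 0.0891% and 0.443% beside 2.30%, below its plasma-like share. *Ighg2b* showed the reverse, at 3.30% (2.33 to 4.52) and 2.73% (1.93 to 3.75) in *Postn*-DTR beside 0.570%, and at 0 of 4857 and 0 of 206 UMIs in WT beside 0.489%. All T-like cells taken, 33 of 506 *Postn*-DTR cells and 2 of 3149 WT cells had an *Ighg2b* UMI. *Ighd*, which B2-like cells carry most, was at 0.412% in T-like cells of WT beside 0.0114%. *Igha* was below its plasma-like share in T-like cells of WT (0.412%, 0.252 to 0.635, beside 3.58%). In *Postn*-DTR it had 1 UMI of 1122 (0.0891%, 0.00226 to 0.496), an interval that includes the plasma-like share of 0.493%. The source of these UMIs was not tested.

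**Figure D5:**
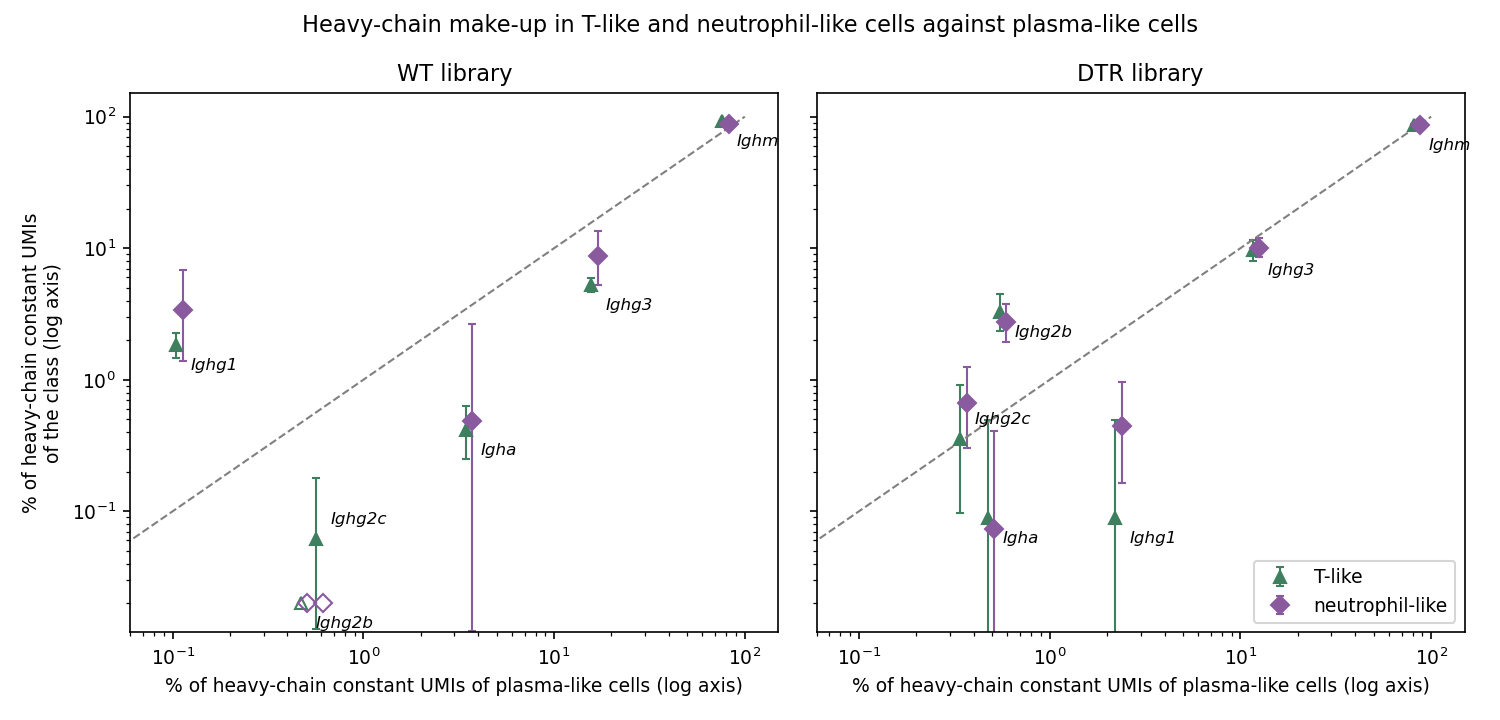
Percent of heavy-chain constant UMIs taken by each gene in T-like (triangles) and neutrophil-like cells (diamonds) without marker-bearing cells, against the percent in plasma-like cells of the same library, on log axes with exact 95% intervals and a dashed line of equality (open symbols at the bottom mark 0 UMIs). *Ighm* and, in *Postn*-DTR, *Ighg3* lie near the line, *Ighg1* lies above it in WT and below it in *Postn*-DTR, and *Ighg2b* lies above it in *Postn*-DTR.

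*Ighm* also outweighed *Igkc* in T-like cells of WT, where it had a UMI in 66.8% of cells against 29.6% for *Igkc*, while in plasma-like cells nearly every cell had both. Their levels in T-like cells were 3.70 and 1.52 in the WT library and 5.82 and 4.26 in the *Postn*-DTR library. Without marker-bearing cells they were 3.18 and 0.951, and 5.39 and 4.06. In monocyte-like cells *Ighm* had a UMI in 86.0% of WT cells against 33.3% for *Igkc*, and in 87.8% against 71.0% in *Postn*-DTR. The source of this excess of *Ighm* was not tested.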

How the data were processed

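Droplet single-cell RNA libraries of the omentum, 1 per genotype (WT and *Postn*-DTR, each from pooled mice), were analysed. The authors deposited natural log values, the natural log of 1 plus UMIs per 10000 UMIs of a cell. The submitters' processing notes name Cell Ranger 6.0.0 and build mm10, whereas the study's methods name another version. The labels name a 5′ kit and the methods a 3′ kit, which decides whether tags lie near the V segment. A 5′ tag does not separate membrane from secreted forms. UMIs were recovered from the steps of the values and were whole within 0.1 UMI for 99.966% (WT) and 99.907% (*Postn*-DTR) of values. The comparison had been planned on linear values, so the mean of back-transformed values was used and summed UMIs stand beside it.

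Cells with 200 to 7500 genes and at most 25% mitochondrial UMIs were kept and clustered together without batch correction (Seurat 5.3.0, sctransform 0.4.2, R 4.3.3, 3000 variable features without immunoglobulin genes, 30 principal components, resolution 0.8). Clusters were named from marker lists with thresholds set after the clusters were seen. Doublets were called with Scrublet in scanpy 1.11.5 at a score of 0.25 (136 WT and 106 *Postn*-DTR cells) and removed only in an alternative. Cluster 17, with shallow cells, stayed unnamed.

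With 1 library per genotype no test was run. Shares have exact Clopper-Pearson, sums exact Poisson and ratios of sums exact conditional binomial 95% intervals, for counting error only, and a count of 0 is given with the share that 3 counts allow. A gene was called past 2-fold if it had at least 100 UMIs over both libraries in the class. The genes named for isotype were the 8 highest and 8 lowest with 1 sign in both libraries and list members past 2-fold in both, and for likeness the 3 with the highest correlation of log2(level + 0.1). The members, marker genes and gene lists were chosen with earlier results of these data known. Alternatives changed clustering, cell filter, doublets, scale, call margin, minimum, free RNA, depth and cells. The steps were tested on simulated data. Some genes of the lists are not reported here by name.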

Additional observations from a re-analysis of the deposited data

Results flagged for a closer look

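Some genes moved one way between the libraries in plasma-like cells and the other way in another class, with at least 1 of the 2 changes past 2-fold. The difference between classes was not tested in any of these cases, since each class has 1 value per library. *Ighg3* had a log2 ratio of *Postn*-DTR to WT of -0.32 in plasma-like cells but of 1.72 in B2-like, 1.44 in T-like and 3.61 in neutrophil-like cells. *Igkc* had -0.07 in plasma-like and 1.49 in T-like cells. *Ighd* had -1.96 in plasma-like cells, on 108 and 92 UMIs, and 0.18 in B2-like cells, on 4047 and 987 UMIs.

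A further pair of values came from data outside the comparisons. *Iglc3*, which the light-chain call did not use, was the highest of 4 light-chain genes in 5 plasma-like cells of *Postn*-DTR and in 0 of WT. In cluster 17, left unnamed because its cells were shallow (median of 1090 UMIs in WT and 2240 in *Postn*-DTR), the median summed level of the 10 genes was 28.6 UMIs per 10000 in 159 WT cells and 681 in 172 *Postn*-DTR cells.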

How the results depend on the processing

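Of the main values (shares, counts and summed levels), 150 recomputed values stayed within their counting error or within 1.5 times a count, and 29 moved. Of the other recomputed values, which include levels and ratios of single genes, 921 stayed, 379 moved and 5 turned direction. The causes were not tested unless the setting itself gives fewer cells or genes. Leaving out the *Ighv1-26* *Igkv9-120* cells (chosen after seeing the data) brought IgG1 in *Postn*-DTR from 2.93% to 0.148%, IgM to 88.0%, and the members higher past 2-fold from 1 to 0. Counting cluster 17 as plasma-like (also chosen afterwards) put IgM in WT at 78.0%. Kappa was 99.4% in *Postn*-DTR with a 2-fold margin, and 92.7% (at least 500 genes) and 95.8% (resolution 0.4) in WT. The share of cells with an *Ighd* UMI thinned to 2000 UMIs was 17.5% and 17.2% in B1-like and 60.4% and 65.5% in B2-like cells (WT, *Postn*-DTR), and in WT B1-like cells 11.3% at resolution 0.4, 6.99% at resolution 1.6 and 11.2% with constant region genes among the variable features. The log2 ratio of the summed 10 genes in T-like cells, 0.96, became 1.20 without marker-bearing cells, 1.07 with constant region genes among the variable features and 1.12 without doublets. In neutrophil-like cells, 0.67 became 2.82 without marker-bearing cells, 2.30 at resolution 0.4, 0.78 at resolution 1.6, 0.75 with at least 500 genes, 0.76 with constant region genes among the variable features and 0.74 without doublets. Genes past 2-fold in IgG cells, 14 higher and 102 lower, became 23 higher without cycling cells and 28 higher per 10000 UMIs of other genes, and, among settings chosen after seeing the data, 1 higher and 19 lower within *Ighv1-11* *Igkv8-16* (3114 genes tested) and 3 and 16 within cluster 3 (2181 tested). Directions turned for *Vav3* (0.14 WT, 0.47 *Postn*-DTR) and *Sfn* (-0.26, *Postn*-DTR) within that V pair, for *Hsp90b1* in WT within cluster 3 (-0.04), and for *Iglc2* in neutrophil-like cells at resolution 0.4 (0.56) and without marker-bearing cells (2.59). Of 293 recomputed ratios between libraries, 11 lost and 8 gained a call past 2-fold. The number of cells limits the rare isotypes, since 3 cells are 0.542% of WT and 0.144% of *Postn*-DTR plasma-like cells. No paired analysis was possible because each genotype has 1 library.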

Other observations

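*Ighe*, the IgE constant gene and not among the 10, had 36 UMIs in WT plasma-like cells and 0 in *Postn*-DTR. A single cell held 97.2% of the 36 UMIs. No B1-like or B2-like cell had an *Ighe* UMI in either library.

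In cluster 17, 94 of 159 WT cells (59.1%) and 143 of 172 *Postn*-DTR cells (83.1%) had *Ighm* as their highest heavy-chain gene, and 11 and 13 had *Ighg3*. Macrophage-like cells of *Postn*-DTR had an *Ighm* level of 58.9 UMIs per 10000, the highest among the other 10 of the 11 classes compared, and 17 of their 331 cells held 93.5% of those UMIs. In WT, 4 of 125 macrophage-like cells held 95.7%.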
